A study of Arabidopsis thaliana with 28 samples.

Results

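Among the 421 mature miRNAs listed for Arabidopsis thaliana seedlings, 150 carried the family number of miR1886 or a higher one, and 120 of these were described. They were chosen by that number, by leaving out the miR2111, miR4221 and miR5634 entries (6 entries), and by a mean of at least 5 normalised counts over the 14 deposited group means. The other 24 with such a number lay under that mean. The groups were wild-type Col-0 seedlings incubated with the hormone abscisic acid (ABA) for 0.5, 1, 3, 6, 9, 12 or 24 h, and mock seedlings given ethanol (EtOH) for the same 7 times. Each of the 14 groups had 2 libraries, 28 in all, made from total RNA of whole seedlings. No source used here states how much ABA was given. The labels do not tell whether both libraries of a group are separate cultures or plants, and the p-values then reflect library-to-library spread alone, which may be technical.

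MicroRNAs of plants are cut from hairpin transcripts by DICER-LIKE proteins and guide ARGONAUTE proteins to matching messenger RNAs, which are then cut or translated less. ABA is the hormone of drought and salt response, seed dormancy and stomatal closure. Families are numbered in the order in which they were described. The low numbers hold the abundant families shared across land plants, while many high-numbered Arabidopsis families are known from few species, are expressed weakly, and come from hairpins that lie inside other genes or in repeated sequence.

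Mature sequences were taken from RefSeq (TAIR10.1) and are written 5′ to 3′ with the seed, bases 2 to 8, in capitals. RefSeq held 119 of the 120 members by name, with 99 distinct sequences, and miR1886 is given by name only. The first set is shown because several loci carry the same mature sequence, so that their listed values bear on 1 molecule. It holds 31 loci with 11 sequences.
miR8167a to f: aGAUGUGGagaucguggggaug
miR5645a, b, d, e and f: aUUUGAGUcaugucguuaag
miR5635a to d: uGUUAAGGaguguuaacggug
miR5642a and b: uCUCGCGCuuguacggcuuu
miR5643a and b: aGGCUUUUaagaucugguugc
miR2933a and b: gAAAUCGGagaggaaauucgcc
miR5595a and miR5995b: aCAUAUGAucugcaucuuugc
miR5998a and b: aCAGUUUGuguuuuguuuugu
miR5649a and b: aUUGAAUAuguugguuacuau
miR3932a and miR3932b-3p: aACUUUGUgaugacaacgaag
miR5630a and b: gCUAAGAGcgguucugaugga

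Only 1 seed was held by different sequences among the 119 with an entry, that of miR5020a and miR5641. These are shown because they agree in the seed and differ beyond it.
miR5020a: uGGAAGAAggugagacuugca
miR5641: uGGAAGAAgaugauagaauua

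The next sequences belong to the members with the smallest p-values for a higher level with ABA in the mean over the 7 times, beside miR5635c and miR5635d of the first set.
miR8166: aGAGAGUGuagaaaguuucuca
miR8180: uGCGGUGCgggagaagugc
miR5665: uUGGUGGAcaagaucugggau
miR8177: gUGUGAUGaugugucauuuaua
miR8173: aUGUGCUGauucgagguggga

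A further set holds the members with the smallest p-values for a lower level with ABA in the mean over times, beside miR5642a and b.
miR5026: aCUCAUAAgaucgugacacgu
miR3434-3p: uCAGAGUAucagccauguga
miR5640: uGAGAGAAggaauuagauuca

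The last set holds members whose ABA effect passed the test at a single time or differed between early and late times, and miR5658, whose sequence is a repeated AUG triplet that ends in AAA.
miR8170-3p: uUGCUUAAagauuuucuaugu
miR5014a-5p: aCACUUAGuuuuguacaacau
miR1888a: uAAGUUAAgauuugugaagaa
miR3440b-5p: uUUUCUUGgcccauccacuuc
miR5633: uAUGAUCAucagaaaacagug
miR5024-5p: aUGACAAGgccaagauauaaca
miR4228-5p: aUAGCCUUgaacgccgucguu
miR5028: aAUUGGGUuuaugcuagaguu
miR5651: uUGUGCGGuucaaauaguaac
miR5658: aUGAUGAUgaugaugaugaaa

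The 120 members were low in level. Levels are the authors' normalised counts, averaged over the 14 groups, and since the level chose the members they are described without a test. The median member had a mean of 89.0, against 720 for the 242 other listed miRNAs with a mean of at least 5, of which the highest had 727024. All 120 members together made up 0.456% to 0.746% of a group's total of 4305800 to 7644818 normalised counts. Without miR8175, the most abundant, the share was 0.359% to 0.577%. Recovered counts came to 218054 to 863588 per library, 3.87% to 14.7% of a group's total, because the most abundant miRNAs could not be split into libraries. Only the 363 miRNAs recovered in all 28 libraries were used in the fits, so at most these counts entered them.

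**Figure D1:**
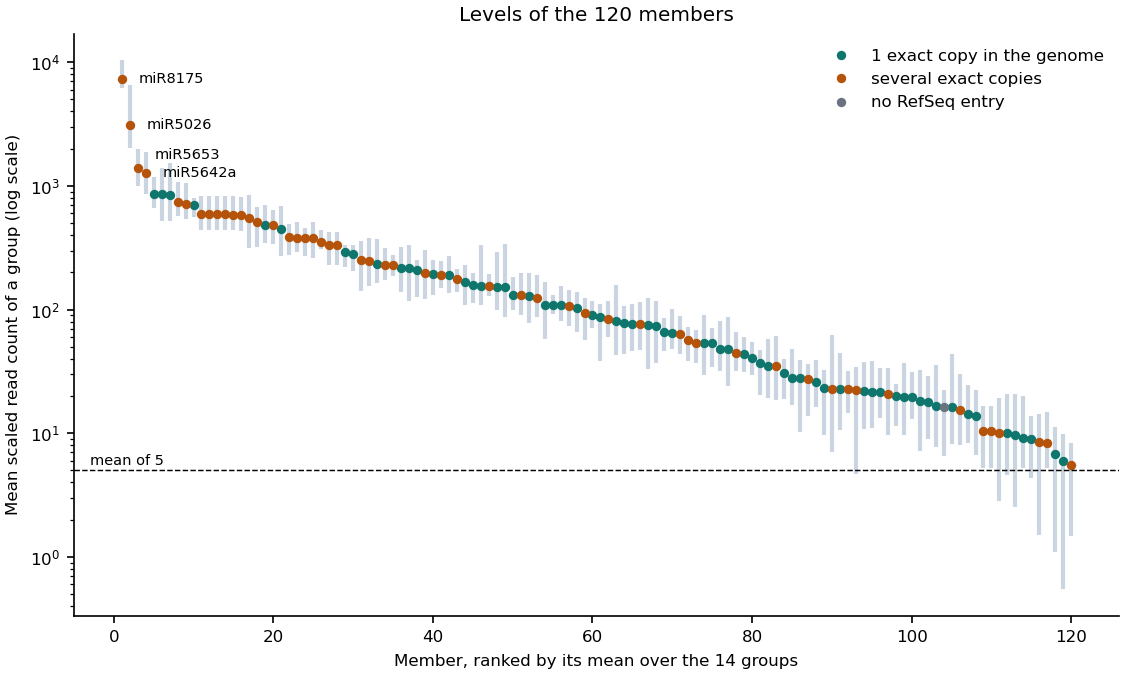
Level of each of the 120 members, ranked by the mean over 14 groups (normalised, that is scaled, counts on a log axis), with bars for the lowest to highest group and colours for 1 or several exact genome copies. miR8175, miR5026, miR5653 and miR5642a lie above 1000, and the lowest member, miR5646, lies just above the mean of 5 that the choice of members used.

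Only 4 members had a mean over 1000 normalised counts. These were miR8175 (7368), miR5026 (3099), miR5653 (1406) and miR5642a (1266). From 500 to 1000 lay 14 members, which were miR2112-3p, miR5020b, miR1888a, miR5663-3p, miR5663-5p, miR5652, the 6 loci of miR8167, miR5642b and miR8166. From 200 to 500 lay 20 members, namely miR8169, miR5635b, c and d, miR5651, miR8177, miR8172, miR5645a, b and f, miR5995b, miR5014b, miR5014a-3p, miR8180, miR8179, miR8174, miR2933a, miR5650, miR5028 and miR5654-3p. From 100 to 200 lay 20 more, namely miR3932b-5p, miR5659, miR5645d and e, miR5654-5p, miR2933b, miR2112-5p, miR5644, miR4228-3p, miR5595a, miR8170-3p, miR8173, miR4245, miR5998a and b, miR5665, miR8183, miR5629, miR5024-3p and miR5014a-5p.

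A majority of the members, 62 of 120, lay under 100. Between 50 and 100 were 17 members, namely miR5635a, miR8121, miR5024-5p, miR8178, miR8182, miR1888b, miR5996, miR8184, miR4228-5p, miR3434-3p, miR3434-5p, miR8165, miR5639-5p, miR5643b, miR5649a and b, and miR5664. Between 20 and 50 were 23, namely miR5639-3p, miR5637, miR5643a, miR5636, miR5656, miR5012, miR5640, miR8168, miR5657, miR5638b, miR3440b-3p, miR8171, miR5997, miR5641, miR5018, miR8176, miR5662, miR5645c, miR5632-3p, miR5628, miR5666, miR3932b-3p and miR5647. The lowest 22, under 20, were miR5633, miR5661, miR5027, miR5632-5p, miR5660, miR1886, miR5023, miR3932a, miR5020a and c, miR5019, miR5630a and b, miR5658, miR8170-5p, miR3440b-5p, miR2936, miR5631, miR5029, miR5648-5p, miR2934-5p and miR5646. Just inside the threshold of 5 were miR5646 with 5.53, miR2934-5p with 5.97 and miR5648-5p with 6.77. Just outside were miR5655 with 4.46, miR5648-3p with 3.76 and miR5015 with 3.67.

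Levels moved little between the 14 groups for most members. The highest group over the lowest was 2.35-fold at the median, under 3-fold for 83 of 120 members and over 10-fold for 2. Each time had been scaled by the authors on its own, so folds between times also carry that scaling. The narrowest was miR5652, with 562 normalised counts in ABA at 0.5 h as its lowest and 797 in ABA at 24 h as its highest group (1.42-fold). The widest was miR2934-5p, with 0.546 in ABA at 6 h and 9.82 in EtOH at 1 h (18.0-fold), where the low value rests on very few reads. No group mean of a member was 0, and 4 members (miR5018, miR5648-5p, miR2934-5p and miR5646) had at least 1 library at 0.

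Loci with 1 sequence were not always listed with 1 value. The loci miR8167a, b, d and e had identical values in every group, with a mean of 588, and miR8167c (582) and miR8167f (585) lay within 1.02-fold of them in every group. The 2 loci of miR5630, both on the opposite strand of ribosomal protein L6 genes, had identical values (10.4). The values of miR5998a (124) and miR5998b (130), whose hairpins overlap on opposite strands, differed by at most 1.12-fold in a group. For miR5649a (54.1) and miR5649b (56.2), whose hairpins also overlap, the largest gap was 1.14-fold. These are listed close together, so that nearly the same signal stands at each locus.

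Other loci of 1 sequence were listed far apart. miR5635 had means of 93.9 at locus a, 382 at b, 483 at c and 251 at d, and within a group the highest locus stood 3.42-fold to 6.34-fold over the lowest. miR5645 had 330 at a, 330 at b, 190 at d, 107 at e and 377 at f, 2.77-fold to 4.30-fold apart within a group. The 2 loci of miR5642, a with 1266 and b with 552, differed 1.99-fold to 2.87-fold. In miR5595a (154) and miR5995b (350), which lie on opposite strands in the methyl esterase gene MES6, the gap was 2.04-fold to 2.62-fold. The pairs miR5643a (44.9) and b (62.9), miR2933a (229) and b (175), and miR3932a (15.5) and miR3932b-3p (20.7) differed at most 1.59-fold, 1.40-fold and 1.80-fold. No source used here says how reads that map to several loci were counted, so the level of each such sequence is uncertain between its loci, and a call at several loci counts 1 sequence several times.

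**Figure D2:**
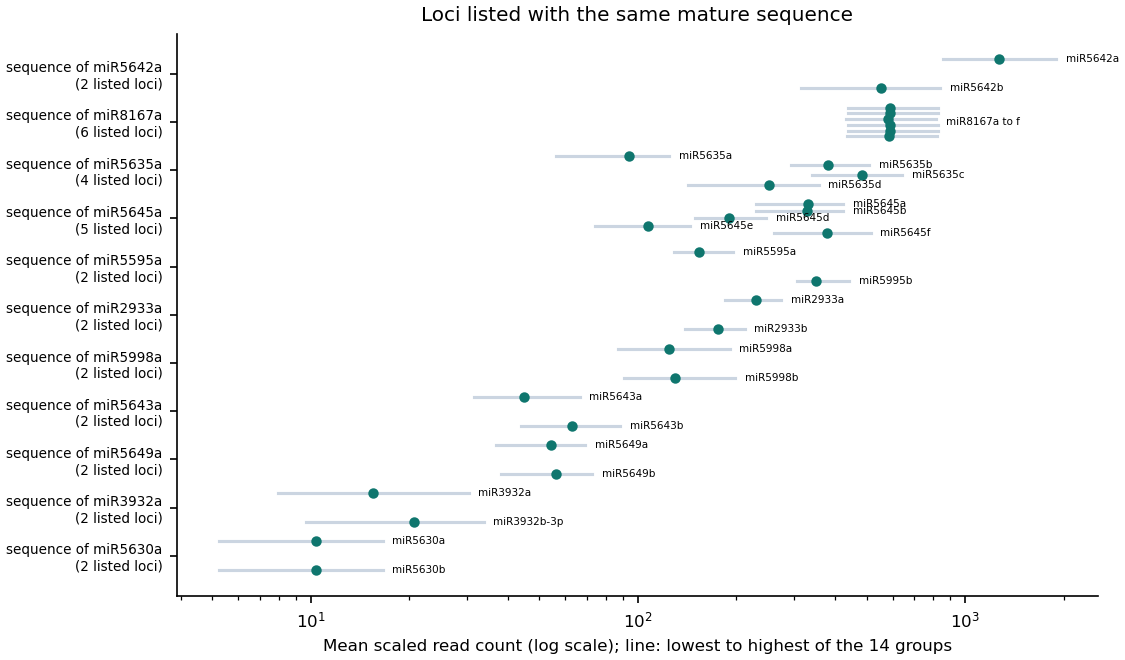
Normalised (scaled) counts on a log axis for the loci of the 11 shared mature sequences, with the mean over 14 groups as a point and the lowest to highest group as a line for each locus. The miR8167 loci lie on top of each other, while miR5635a and miR5635c stand 3.42-fold to 6.34-fold apart within a group.

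The most abundant member, miR8175, also matched a transfer RNA. Its 20 bases are the 3′ end with the added CCA of 22 of the 28 annotated tRNA-Asp genes in RefSeq TAIR10.1.
miR8175: gAUCCCCGgcaacggcgcca
Its own locus is at chr2:3740938-3740957 on the plus strand, and the sequence has 2 exact copies in the genome, the other inside the coding gene AT3G44580. Whether its reads came from the hairpin or from tRNA-Asp was not tested. Its group means lay between 6139 in ABA at 0.5 h and 10383 in EtOH at 3 h. Since 1 of its 14 groups could not be split into libraries, it was tested on the 7 log2 ratios of deposited means, which gave −0.09 (SE 0.12, limma adjusted p = 0.622), with ABA above mock at 3 of 7 times.

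For 12 hairpins both arms were measured. The 3p arm was the higher in 10 and the 5p arm in 2 (MIR3932b and MIR5639), and in 7 the same arm was higher in all 14 groups. The ratio ran from 1.05 in MIR5663, where miR5663-3p had 744 and miR5663-5p 709, to 15.2 in MIR8170, where miR8170-3p had 153 and miR8170-5p had 10.1. The arms of MIR5663 are exact reverse complements of each other. Each sequence is also found at the place of the other arm, on the opposite strand. Whether their near-equal values are shared signal was not tested. In MIR2112, inside the signal peptide peptidase-like gene SPPL4, miR2112-3p had 862 and miR2112-5p 167. In MIR3932b the 5p arm (196) stood 9.50-fold over the 3p arm (20.7), and the 3p sequence is also listed for miR3932a.

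ABA changed many members a little. In the mean over the 7 times, 51 of 119 tested members passed the limma test (42.9%, against 47.5% of all 358 tested miRNAs). Of these 27 rose, which is 22.7% of the members against 22.9% of all, and 24 fell, 20.2% against 24.6%. The median log2 difference of the members was −0.01, against −0.04 for all tested miRNAs, and the members' values ran from −0.74 to 0.85. The 27 raised loci hold 19 sequences and the 24 lowered hold 22. These shares are near those of the whole table. Centring each library on its median gave 28 raised and 18 lowered members, so the balance of the directions depends on the scaling. The miR2111, miR4221 and miR5634 entries were left out with earlier results known. Among them miR4221 and miR5634 were lowered (−0.89 and −1.29), and miR2111a-5p, miR2111b-3p and miR2111b-5p were raised (1.55, 1.58 and 1.55), so the counts of members in both directions and both ends of their range depend on that choice. In whole seedlings, fewer cells that make an miRNA and less of it per cell cannot be told apart.

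**Figure D3:**
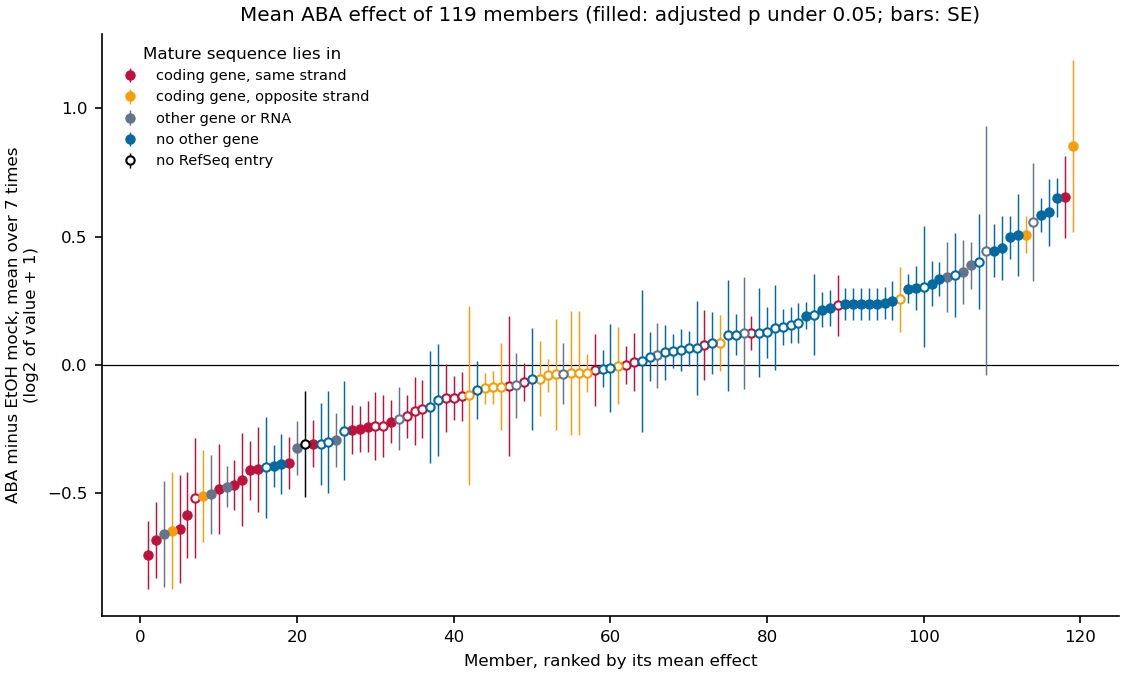
Log2 difference of ABA minus mock, mean over 7 times, with its standard error (bars), for the 119 tested members ranked by that difference. Filled points passed the test, 27 above 0 and 24 below, and the colour gives where the mature sequence lies.

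The raised members with the smallest p-values, miR8166 and miR8180, lie in no other annotated gene and have several genome copies. miR8166 (chr1:4525316-4525337, minus strand, 13 exact genome copies) had 493 to 722 normalised counts in the 14 ABA libraries (median 601) and 299 to 538 in the 14 mock libraries (median 415). At each of the 7 times both ABA libraries lay above both mock libraries. Since miR8166 was picked by its p-value, this lack of overlap is no separate support. How often it held over all tested miRNAs was not counted. The log2 difference was 0.58 (SE 0.07, adjusted p = 3.36e-07). miR8180 (chr2:2063980-2063998, plus strand, 8 copies) had 219 to 452 in ABA libraries (median 292) and 146 to 272 in mock libraries (median 190), 0.65 higher (SE 0.08, adjusted p = 4.39e-07), with ABA above mock at 7 of 7 times.

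The miR5635 sequence rose at all 4 of its listed loci. miR5635d (chr4:1024077-1024097, plus strand, on the opposite strand in an intron of AT4G02320, of the invertase/pectin methylesterase inhibitor family) had 209 to 380 in ABA libraries (median 288) and 138 to 267 in mock libraries (median 214). Its difference was 0.51 (SE 0.07, adjusted p = 7.8e-06). For miR5635c, with 395 to 659 in ABA libraries (median 519) and 334 to 621 in mock libraries (median 428), it was 0.30 (SE 0.06, adjusted p = 0.000256). Locus a gave 0.32 and locus b 0.19, with adjusted p = 0.00601 and 0.00519. The 4 loci share a sequence and are not 4 separate results.

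Among the raised members with 1 genome copy were miR5665 and miR8173. miR5665 (chr5:19499093-19499113, minus strand) had 124 to 208 in ABA libraries (median 146) and 66.6 to 145 in mock libraries (median 104), 0.50 higher (SE 0.08, adjusted p = 6.9e-05), with ABA higher at 7 of 7 times. miR8173 (chr5:7478572-7478592, minus strand) had 103 to 411 in ABA libraries (median 165) and 63.4 to 184 in mock libraries (median 111), 0.59 higher (SE 0.13, adjusted p = 0.000849), at 6 of 7 times. miR8177 (chr5:9362634-9362655, minus strand, 7 copies) had 331 to 538 in ABA libraries (median 442) and 246 to 487 in mock libraries (median 338), 0.33 higher (SE 0.07, adjusted p = 0.000379). The libraries of ABA and mock overlapped over the time course for all 3, so the differences rest on the comparison within times.

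The other raised members were all 6 loci of miR8167 (0.24 at each), miR8184 (0.44), miR8174 (0.39), miR8182 (0.65), miR8168 (0.46), miR5644 (0.30), miR5020b (0.25), miR5653 (0.21), miR5664 (0.51), miR8172 (0.22), miR8183 (0.36), miR5658 (0.85) and miR4228-3p (0.34). The rise of miR5658, the highest value, was also among the least certain. Its ABA libraries held 0.992 to 23.2 normalised counts (median 14.8) and its mock libraries 2.11 to 22.6 (median 4.47), with adjusted p = 0.0409. Its repeat sequence has 7 exact copies, 1 of them in its own locus and all 7 in places where RefSeq annotates a coding gene. The call of miR5658 was lost in 19 of the 28 fits that left out 1 library, and that of miR4228-3p in 18.

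The lowered member with the smallest p-value was miR5026 (chr4:7844612-7844632, plus strand), in an intron of the non-coding RNA gene AT4G13495. Its ABA libraries held 1974 to 3962 normalised counts (median 2357) and its mock libraries 2149 to 7880 (median 3207). It was lower by 0.47 with ABA (log2 difference −0.47, SE 0.08, adjusted p = 7.17e-05), at 7 of 7 times. miR3434-3p (chr5:7583132-7583151, minus strand), in an intron of the alpha-adaptin gene alpha-ADR, whose product is part of an endocytic adaptor complex, had 32.0 to 108 in ABA libraries (median 47.6) and 46.8 to 133 in mock libraries (median 91.6). Its difference was −0.74 (SE 0.13, adjusted p = 0.000116), also at 7 of 7 times.

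The miR5642 sequence fell at both loci. miR5642a (chr3:14197116-14197135, plus strand) had 713 to 1416 in ABA libraries (median 1035) and 1111 to 2039 in mock libraries (median 1296), a difference of −0.39 (SE 0.08, adjusted p = 0.000483). miR5642b (chr2:3145-3164, plus strand, in an exon of AT2G01008) had 222 to 677 in ABA libraries (median 458) and 472 to 892 in mock libraries (median 601), a difference of −0.47 (SE 0.10, adjusted p = 0.000545). Both were lower at 6 of 7 times, the exception being 1 h. miR5640 (chr1:1653539-1653559, minus strand, in an intron of the callose synthase gene CALS1) had 12.1 to 49.5 in ABA libraries (median 26.9) and 27.4 to 62.4 in mock libraries (median 44.1), a difference of −0.68 (SE 0.15, adjusted p = 0.000849).

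**Figure D4:**
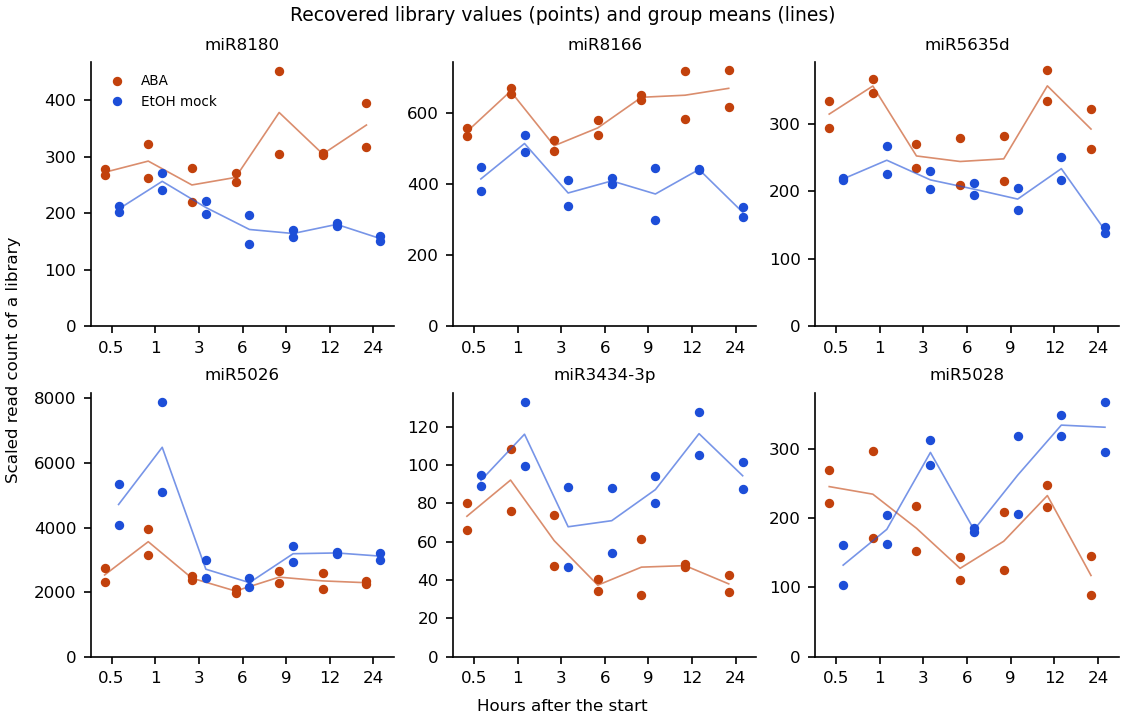
Normalised counts of single libraries at each time, ABA left of EtOH mock, for miR8180, miR8166, miR5635d, miR5026, miR3434-3p and miR5028, with lines through the group means. The ABA libraries of miR8166, which was picked by its p-value, lie above the mock libraries at all 7 times.

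The other lowered members were miR1888a (−0.38) and miR1888b (−0.41), miR5628 (−0.59), miR5014a-5p (−0.31), miR5014a-3p (−0.22), miR5028 (−0.39), miR3440b-3p (−0.51), miR3440b-5p (−0.66), miR5998a (−0.32) and b (−0.29), miR5632-3p (−0.64), miR5632-5p (−0.49), miR5631 (−0.51), miR2934-5p (−0.65), miR2112-5p (−0.25), miR5024-3p (−0.25), miR5024-5p (−0.24), miR3932b-3p (−0.45) and miR5637 (−0.41). Both arms fell in 4 hairpins, MIR3440b, MIR5014a, MIR5024 and MIR5632. A single arm passed the test in 4 others, of which MIR4228 was the only one with a rise, and no arm did in the remaining 4. Of the 51 called members, 15 had the sign of the mean at all 7 times, 21 at 6 times and 15 at 5 or fewer.

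Leaving out each of the 28 libraries in turn, 38 of the 51 calls held in every fit, 24 of them raised and 14 lowered. The lost ones were miR8183 (in 2 of 28 fits), miR5631 (3), miR2934-5p (4), miR5998b (6), miR5632-5p and miR2112-5p (9 each), miR5014a-3p and miR5024-3p (14 each), miR4228-3p (18), and miR5658, miR3932b-3p, miR5637 and miR5024-5p (19 each). The 24 raised include the 6 loci of miR8167, which share a sequence, and the 4 loci of miR5635, which share another. How many of the 170 calls over all tested miRNAs held in every fit is not given here. A one-sample limma fit of the 7 log2 ratios of deposited group means, which uses no library values, called 22 of 119 members, 13 raised and 9 lowered, against 30% of all 367 miRNAs it tested. Of these 22, 21 were among the 51.

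The members differed by where their sequence lies in the genome, a pattern noticed after the values were seen and given as counts without a test. Of 33 members on the same strand as a protein-coding gene, 15 fell, 1 rose (miR8182) and 17 did not pass the test, with a median of −0.24. In introns of such genes 10 of 18 fell and 0 rose, with a median of −0.25, and of 14 tested other miRNAs so placed 5 fell and 2 rose, with a median of −0.17. Other listed miRNAs with a mean of at least 5 in the same placement had 9 lowered and 2 raised of 22 tested, with a median of −0.24, so the placement is not particular to these members. The arms of a hairpin are counted singly here. Both arms of MIR5014a, MIR5024 and MIR5632 are among the 15, and those of MIR5024 and MIR5632 among the 10. Loci with the same sequence can fall in different placements. miR5642b and miR3932b-3p are among the 15, while miR5642a and miR3932a, with the same sequences, lie in no other gene. miR5635d is likewise placed apart from miR5635a to c. Which locus the reads of such a sequence came from was not tested. Of the 10, miR5632-5p, miR2112-5p, miR5024-3p, miR5024-5p and miR5637 lost their calls in 9 to 19 of the 28 fits that left out 1 library. The hosts of lowered members include GAD2 (glutamate decarboxylase 2, which makes the signalling amino acid GABA) for miR5014a, AAP5 (an amino acid permease) for miR5024, AT5G21100 (an L-ascorbate oxidase) for miR1888a, and AT2G19390 for miR5632. Host transcripts were not measured in these libraries.

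Of 53 tested members in no other annotated gene, 21 rose, 2 fell (miR5642a and miR5028) and 30 did not pass the test, with a median of 0.16. The 134 tested other miRNAs in that placement had 34 raised and 45 lowered, with a median of −0.10. Of the 31 tested members in no other gene with several exact genome copies, which hold 19 sequences among 32 loci, 16 rose and 1 fell, with a median of 0.19. Of 56 tested other miRNAs so placed, 17 rose and 17 fell, with a median of −0.01. Over all placements, 19 of 52 tested members with several copies rose and 6 fell, and 25 rose and 20 fell of 68 tested other miRNAs with several copies. With 1 copy, 8 of 66 members rose and 18 fell, and 25 rose and 38 fell of 113 other miRNAs. The loci of 1 sequence are counted singly here, and 6 of the raised ones are miR8167.

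By single time, the number of members that passed the test was 3 at 0.5 h, 4 at 1 h, 0 at 3 h, 1 at 6 h, 7 at 9 h, 6 at 12 h and 23 at 24 h. At each time the members' share called was under that of all tested miRNAs. It was 0% against 6.7% at 3 h and 19.3% against 21.5% at 24 h. In all, 34 members passed at 1 or more times and 8 at several, and 8 of the 34 were not called in the mean over times. The matching share of all tested miRNAs that passed at 1 or more times was not counted. miR8166 and miR8180 passed at 3 times, 9, 12 and 24 h. Of the 44 calls at single times, 38 were lost without at least 1 library of that time, 14 of them whichever of the 4 was left out, and 6 were kept in each of these fits. Libraries of a group were closest in mock at 12 h and farthest apart in mock at 3 h, where the log2 difference between them had an SD of 0.20 and of 0.59 over miRNAs with a mean of at least 100.

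**Figure D5:**
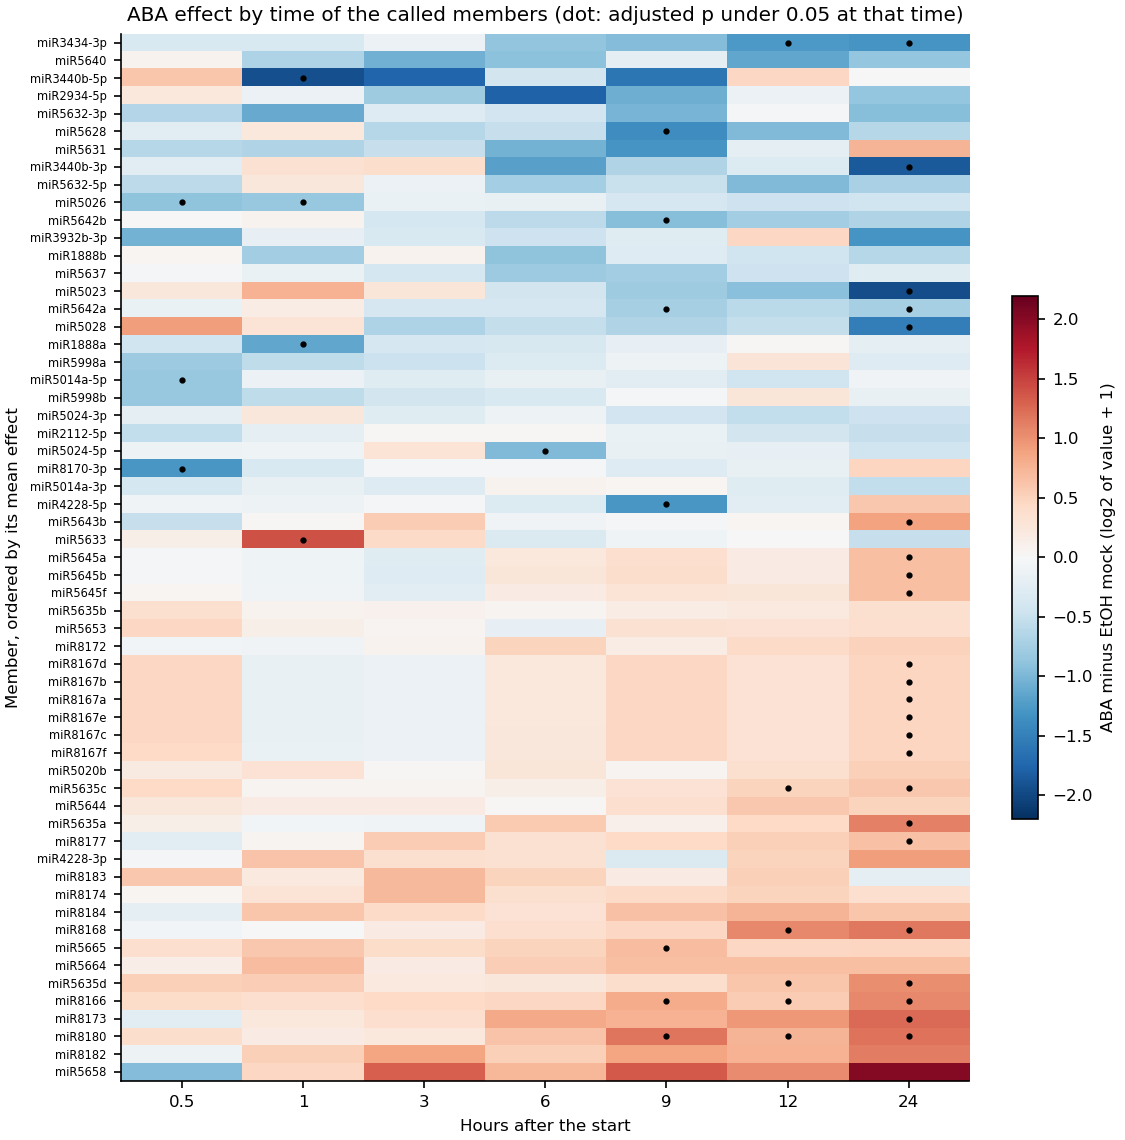
Log2 difference of ABA minus mock at each of 7 times (colour) for the 59 members called in the mean over times or at a time. Dots mark calls, of which 24 h has 23 and 3 h has 0.

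At 0.5 h, 3 members fell and 0 rose. Of all tested miRNAs 7.54% were called, 5.87% raised and 1.68% lowered. miR5026 had 2747 and 2316 normalised counts in ABA libraries and 5337 and 4092 in mock libraries (log2 difference −0.89, SE 0.21, adjusted p = 0.0119). miR8170-3p (chr2:14100079-14100099, plus strand, in an intron of AT2G33255, a hydrolase gene) had 99.2 and 141 in ABA libraries against 278 and 302 in mock libraries (−1.29, SE 0.32, adjusted p = 0.0119). miR5014a-5p had 81.3 and 64.0 in ABA libraries against 129 and 130 in mock libraries (−0.83, SE 0.24, adjusted p = 0.0359). The groups did not overlap for any of the 3. Here and at the later times, the members named were picked by their p-value, so a lack of overlap is no separate support. How often 2 and 2 libraries were apart over all tested miRNAs was not counted. The call of miR5026 was lost without ABA library b or mock library a, that of miR8170-3p without ABA library a or either mock library, and that of miR5014a-5p without any of the 4. Without either ABA library or mock library b 1 member was called, and without mock library a 0 were. In the authors' deposited table miR5026 and miR8170-3p were the 2 members that passed, against 11.2% of its miRNAs. Centring each library on its median gave 9 raised and 2 lowered members in place of 0 and 3. Of all tested miRNAs it gave 33 raised and 4 lowered, in place of 21 and 6.

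At 1 h, 1 member rose and 3 fell, against 9.22% of all tested called, 6.7% raised and 2.51% lowered. miR1888a (chr5:7168879-7168899, plus strand, in an intron of the ascorbate oxidase gene AT5G21100) had 797 and 602 in ABA libraries and 1516 and 1534 in mock libraries (−1.14, SE 0.27, adjusted p = 0.0072). miR5026 had 3160 and 3962 in ABA libraries and 7880 and 5091 in mock libraries (−0.84, SE 0.21, adjusted p = 0.0117). miR3440b-5p, in the pseudogene AT3G18145, had 1.11 and 6.21 in ABA libraries and 15.9 and 12.2 in mock libraries (−1.94, SE 0.55, adjusted p = 0.0266). These 3 were lower in both ABA libraries than in both mock libraries. miR5633 had 26.5 and 22.4 in ABA libraries against 15.2 and 4.70 in mock libraries (1.40, SE 0.44, adjusted p = 0.0471). The call of miR1888a was lost without library b of either group, that of miR5026 without library a of either, that of miR3440b-5p without ABA library a or either mock library, and that of miR5633 without either ABA library or mock library b. Without ABA library a or mock library b 1 member was called, and without ABA library b or mock library a 2 were. In the authors' deposited table miR1888a was the 1 member that passed, against 4.65% of its miRNAs. Median centring, which moves the median of all tested miRNAs by 0.13 at 1 h, gave 4 raised and 2 lowered members, and size factors over all libraries gave 0 and 3. Of all tested miRNAs, centring gave 31 raised and 4 lowered, and these size factors gave 23 and 9.

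At 3 h, 0 members passed the limma test, against 6.7% of all tested called, 4.19% raised and 2.51% lowered. An unadjusted limma p under 0.05 was reached by 10 of 119 members, against 79 of all 358 tested (22.1%). The authors' deposited table called 0 members as well, against 0.246% of its miRNAs. Leaving out 1 library, up to 3 were called: 3 without ABA library a of 3 h, 2 without mock library a of 3 h, and 1 without either ABA library of 1 h, either mock library of 6 h or either mock library of 9 h. Size factors over all libraries and median centring each gave 1 raised member. Of all tested miRNAs, these size factors gave 16 raised and 5 lowered, and centring gave 18 and 9. The spread between the mock libraries was widest at 3 h.

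At 6 h, 1 member fell and 0 rose, against 7.82% of all tested called, 3.35% raised and 4.47% lowered. This was miR5024-5p (chr1:16766388-16766409, minus strand, in an intron of AAP5), with 42.6 and 34.2 in ABA libraries and 81.8 and 71.0 in mock libraries (−0.98, SE 0.26, adjusted p = 0.0182). Its ABA and mock libraries did not overlap. The authors' deposited table called 0 members at 6 h, against 3.87% of its miRNAs. Its call was lost without ABA library b or either mock library of 6 h. The count was 0 without ABA library b or mock library a of 6 h and 4 without ABA library a of 6 h. It was 3 without either ABA library of 3 h or of 9 h, and 2 without either mock library of 3 h.

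At 9 h, 3 members rose and 4 fell, against 12.8% of all tested called, 6.7% raised and 6.15% lowered. miR8180 had 452 and 304 in ABA libraries and 158 and 170 in mock libraries (1.17, SE 0.20, adjusted p = 0.000497), and this call held without any 1 library. miR8166 had 652 and 638 in ABA libraries and 446 and 299 in mock libraries (0.82, SE 0.18, adjusted p = 0.00331), a call lost without mock library b. miR4228-5p had 35.6 and 31.0 in ABA libraries and 69.5 and 96.2 in mock libraries (−1.27, SE 0.33, adjusted p = 0.0133), a call lost without either ABA library or mock library b. For each of the 3, the libraries of ABA and mock did not overlap. The others were miR5642a (−0.73) and b (−0.94), miR5628 (−1.36) and miR5665 (0.68), with adjusted p between 0.0199 and 0.0463. Each of these 4 calls was lost without at least 1 library of 9 h. Leaving out ABA library a or mock library b of 9 h left 3 members called. The authors' deposited table called 1 member, miR8180, against 5.39% of its miRNAs.

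At 12 h, 5 members rose and 1 fell, against 10.6% of all tested called, 6.7% raised and 3.91% lowered. miR8180 had 306 and 303 in ABA libraries and 177 and 183 in mock libraries (0.75, SE 0.20, adjusted p = 0.0164). miR3434-3p had 46.8 and 48.2 in ABA libraries and 105 and 127 in mock libraries (−1.27, SE 0.35, adjusted p = 0.0201). miR5635c had 627 and 578 in ABA libraries and 427 and 429 in mock libraries (0.49, SE 0.15, adjusted p = 0.0395). Libraries of each group agreed closely, and ABA and mock did not overlap. The others were miR8168 (1.06), miR5635d (0.61) and miR8166 (0.55). All 6 calls were lost without any 1 of the 4 libraries of 12 h, 2 members were called without mock library a of 0.5 h, and 3 without either mock library of 24 h. The authors' deposited table called 13 members, 6 raised and 7 lowered, against 24% of its miRNAs. Of these 13 members, 5 were among the 6. A fit of the 4 libraries of 12 h alone called 22, and size factors over all libraries gave 2 raised and 1 lowered. Of all tested miRNAs these size factors gave 21 raised and 14 lowered. The matching share of all tested miRNAs in the fit of 12 h alone is not given here.

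At 24 h, 18 members rose and 5 fell. That is 15.1% of members raised against 10.3% of all tested, and 4.2% lowered against 11.2%, with 21.5% of all tested called. The 18 raised loci hold 9 sequences. The members' median was 0.14, against −0.01 for all. The ABA libraries of miR8166 held 618 and 722 and its mock libraries 306 and 335 (1.06, SE 0.18, adjusted p = 0.000174). miR8180 had 317 and 395 in ABA libraries and 151 and 159 in mock libraries (1.19, SE 0.20, adjusted p = 0.000184). miR5635d had 263 and 322 in ABA libraries and 138 and 147 in mock libraries (1.03, SE 0.19, adjusted p = 0.000533). In these 3 every ABA library lay above every mock library, and the calls held without any 1 library.

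The other raised members at 24 h were miR5635a (1.11), miR5635c (0.59), miR8177 (0.65), miR8173 (1.25), miR8168 (1.16), miR5645a, b and f (0.66 each), miR5643b (0.89) and the 6 loci of miR8167 (0.48 each). The 5 lowered were miR5028 (−1.53), miR3440b-3p (−1.85), miR5023 (−1.96), miR3434-3p (−1.30) and miR5642a (−0.72). The calls of miR5028 and miR3440b-3p held without any 1 library, and each of the other 18 in these lists was lost without at least 1 library of 24 h. miR5645e, which has the same sequence as miR5645a, b and f, had 0.15 and miR5645d 0.32, and neither passed the test. Without ABA library b of 24 h 10 members were called, without mock library a 8 and without mock library b 14. The authors' deposited table called 9 members, 4 raised and 5 lowered, against 15.3% of its miRNAs. All 9 were among the 23, but raised members did not outnumber lowered ones in that table.

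The ABA effect itself differed between early and late times for some members. The mean difference at 6, 9, 12 and 24 h minus that at 0.5, 1 and 3 h passed the test for 13 members, 5 higher later and 8 lower later. Of all tested 15.9% passed, 5.87% higher and 10.1% lower later. For miR8180 the ABA minus mock difference was 0.94 at late and 0.27 at early times (late minus early 0.66, SE 0.15, adjusted p = 0.00468). For miR5028 it was −0.81 at late and 0.18 at early times (−0.99, SE 0.24, adjusted p = 0.00679). For miR5651 it was −0.29 and 0.47 (−0.76, SE 0.20, adjusted p = 0.0109). Without mock library b of 0.5 h, ABA library a of 1 h, ABA library b of 6 h or mock library b of 12 h, 8 members passed. Median centring gave 1 higher and 8 lower later. Of all tested miRNAs it gave 10 higher and 42 lower later, in place of 21 and 36.

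miR5028 was the 1 member whose 7 differences were not equal by the F test of the interaction (F = 6.30, adjusted p = 0.012, against 6.42% of all tested), a call lost without ABA library b or mock library b of 0.5 h. Without ABA library b of 1 h or of 9 h, 2 members passed. At 0.5 h miR5028 (chr4:6546769-6546789, minus strand) had 222 and 269 in ABA libraries and 161 and 103 in mock libraries, and at 24 h it had 146 and 88.8 in ABA libraries and 367 and 295 in mock libraries. The ABA libraries thus lay above the mock libraries at 0.5 h and below them at 24 h. The difference at 24 h passed the test, and that at 0.5 h (0.92) did not. miR5651 (chr3:17178489-17178509, plus strand) had 336 and 301 in ABA libraries and 264 and 281 in mock libraries at 0.5 h, and 411 and 517 in ABA libraries and 650 and 724 in mock libraries at 24 h, with the same order, although no single time passed the test for it.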

How the data were processed

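MiRNA libraries of ABA-treated and EtOH mock seedlings were used, 2 for each of 14 groups. The submitters' processing notes name FastQC, STAR and the TAIR10 build. No source used here gives the counter, the miRNA annotation, the treatment of reads at several loci or the authors' test. Per the file headers, each of 14 signal columns of the authors' deposited table holds 1 treatment at 1 time, and the authors' adjusted p-values stand beside them for each of 7 times.

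The deposited signal values behave as the mean of 2 counts divided by size factors (0.687 to 1.36). Whole counts were recovered where only 1 pair gave the value, for 5322 of 5894 values (90.3%). For 363 of 421 miRNAs all 28 libraries were recovered, 119 of them members. In a group, library a has the larger size factor. The splitting and the fits were tested on simulated data.

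With a pseudocount of 1, log2 library values were fitted in limma 3.58.1 in R 4.3.3 (lmFit, eBayes with trend) for miRNAs with at least 1 in at least 2 libraries, with 14 group means and 14 residual degrees of freedom. A log2 difference is therefore on the log2(value + 1) scale and understates changes at low levels. Tests were two-sided with Benjamini-Hochberg adjustment over the 358 tested miRNAs at 0.05. miR8175 was fitted on ratios of means. Alternatives were another pseudocount, other filters, other scalings, fits of 1 time, ratios of means and each library left out. Full values are given for the 12 members with the smallest p in the mean contrast and the 3 with the smallest p in the others, and of called members sequences are shown for these and a few more. RefSeq sequences were joined by name, and no position was carried between TAIR10 and TAIR10.1. Recovered counts limit precision at low levels. The members, lists and comparisons were chosen with earlier results of these data known.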

Additional observations from a re-analysis of the deposited data

Results flagged for a closer look

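The ABA minus mock difference, in log2 units, differed between the late times (6, 9, 12 and 24 h) and the early times (0.5, 1 and 3 h) for 13 members by the limma test of that difference, which 15.9% of all tested miRNAs passed. In the 28 fits that each left out 1 library, the call was lost 15 times for miR8173, 15 for miR5642b, 16 for miR5635a, 16 for miR3434-3p, 21 for miR5642a and 1 time for miR3932b-5p, and it was kept in all 28 for the other 7. Median centring called 1 member higher later, against 5, and 8 lower later. Of all tested miRNAs it called 10 higher and 42 lower later, against 21 and 36. The difference was higher later for miR8180 (0.66, with 0.94 at late and 0.27 at early times), miR8173 (0.83, with 0.95 at late and 0.12 at early times), miR5635a (0.57, with 0.56 at late and −0.01 at early times), miR5645b (0.51, with 0.37 at late and −0.13 at early times) and miR5645a (0.50, with 0.36 at late and −0.14 at early times). It was lower later for miR5023 (−1.44, with −1.01 at late and 0.42 at early times), miR3440b-3p (−1.16, with −1.0 at late and 0.16 at early times), miR5028 (−0.99, with −0.81 at late and 0.18 at early times), miR3434-3p (−0.83, with −1.10 at late and −0.26 at early times), miR5651 (−0.76, with −0.29 at late and 0.47 at early times), miR3932b-5p (−0.69, with −0.42 at late and 0.27 at early times), miR5642b (−0.62, with −0.74 at late and −0.11 at early times) and miR5642a (−0.49, with −0.60 at late and −0.11 at early times). The largest adjusted p among them was 0.0466, for miR5642a. miR5645a and miR5645b share a sequence, as do miR5642a and miR5642b, so the 13 loci hold 11 sequences. Under the F test of the interaction, which asks whether the 7 differences are equal, miR5028 had an adjusted p of 0.012.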

How the results depend on the processing

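No paired analysis was possible because the recovered libraries carry no replicate number. No result named with full values reversed its sign under any alternative. Counts of members called are given here beside those reported. For the mean over times the ratios of deposited group means gave 22, against 51. For the same mean, median centring gave 28 raised and 18 lowered members, in place of 27 and 24. Of all tested miRNAs it gave 85 raised and 78 lowered, in place of 82 and 88. Median centring gave 11 at 0.5 h, against 3, and 1 at 3 h, against 0. Size factors over all libraries gave 1 at 3 h, 2 at 6 h, against 1, and 3 at 12 h, against 6. At 6 h a pseudocount of 0.1 gave 4 and the filter of at least 5 in at least 2 libraries gave 2. Fits of the 4 libraries of a time alone gave 7 at 0.5 h, 0 at 6 h, 3 at 9 h, against 7, and 22 at 12 h. The matching shares of all tested miRNAs in these fits are not given here. The adjusted p-values of the authors' deposited table gave 1 at 1 h, against 4, 0 at 6 h, 1 at 9 h, 13 at 12 h and 9 at 24 h, against 23. Leaving out 1 library gave 43 to 51 for the mean, 0 to 4 at 0.5 h, 1 to 4 at 1 h, 0 to 3 at 3 h, 0 to 4 at 6 h, 3 to 8 at 9 h, 0 to 8 at 12 h, 8 to 25 at 24 h, 8 to 14 for late minus early and 0 to 2 for the interaction. Why these counts moved was not tested, except that leaving out a library takes away a residual degree of freedom. For the 16 single-time results named with full values, 64 fits left out 1 library of the tested time, and 35 of them lost the call. Low recovered counts limit members near the threshold of 5.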
